A study of Mus musculus with 8 samples.

Results

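The genes described here are 10 that slow or stop the cell cycle, or that belong to the p53 axis, and they were measured in stromal cells sorted from a mouse melanoma. They are the GADD45 genes Gadd45a, Gadd45b and Gadd45g, the cyclin-dependent kinase (CDK) inhibitor genes Cdkn1a, Cdkn1b, Cdkn2b and Cdkn2c, Trp53 and Mdm2 of the p53 axis, and the growth arrest specific gene Gas1. All 10 were found by symbol among the 53801 genes of the deposited table. The tumours were MO5, a B16 melanoma line that carries ovalbumin, grown under the skin of ADAM12-GFP mice, in which green fluorescent protein reports activity of the Adam12 promoter. Cells negative for CD45 and CD31 and positive for PDPN and PDGFRα were sorted, then separated into GFP+ and GFP- cells, which gave 4 RNA-seq libraries of each. Both groups therefore came from the same kind of tumour and reporter animal, with no further treatment named in the labels, which list the GFP state under genotype. The study as a whole used mice of both sexes, and the sex of the mice behind these libraries is not given. By the methods, n counts mice unless stated otherwise, so the libraries of a group are taken here as separate mice. Whether a GFP+ and a GFP- library with the same replicate number shared a mouse is not given.

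Members of the CIP/KIP family (Cdkn1a, which encodes p21, and Cdkn1b, which encodes p27) bind many cyclin and CDK complexes, whereas INK4 proteins (Cdkn2b, which encodes p15, and Cdkn2c, which encodes p18) bind the CDK4 and CDK6 kinases. The transcription factor p53 switches on Cdkn1a, Gadd45a and Mdm2 after DNA damage, and the MDM2 protein in turn marks p53 for degradation. GADD45 proteins are small stress sensors that bind MAP3K4, PCNA and the CDK1 kinase, and Gadd45b and Gadd45g also respond to cytokines. Gas1 was named as a gene of serum-starved fibroblasts and encodes a cell surface protein that also serves as a co-receptor for hedgehog ligands. The comparison of GFP+ with GFP- cells asks which of these genes differ between stromal cells that do and do not report Adam12.

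Total counts ran from 7868787 to 17535099 in 3 GFP- libraries and from 8776925 to 31666734 in the 4 GFP+ libraries, and GFP- replicate 3 held only 883144. Counts were divided by DESeq2 size factors, and the results are called normalised read counts below; in GFP- replicate 3, 3 reads were worth 32.96 normalised counts. Adam12 itself averaged 1362 ± 357 in GFP- cells against 2302 ± 484 in GFP+ cells (normalised counts, SD, n = 4) (DESeq2 adjusted p = 0.0266; edgeR adjusted p = 0.0643). The sort markers Pdgfra and Pdpn were detected in every library and were 2.498-fold and 1.627-fold higher in GFP+ cells, without overlap (DESeq2 adjusted p = 1.93e-12 and 0.0134). Melanocyte markers were lower in GFP+ cells for 11 of the 11 genes tested (10 with edgeR), and their summed normalised count was 25500 to 74880 in GFP- and 4517 to 11880 in GFP+ libraries, with the lowest GFP- sum in replicate 3. Schwann cell markers were lower for 5 of 5 genes tested (2 with edgeR; summed 340.6 to 1772 against 41.66 to 353.9). With DESeq2 and edgeR, no leukocyte or endothelial marker was called, of 9 and 6 tested (0 and 2 at an unadjusted DESeq2 p under 0.05), while limma voom called the endothelial marker Pecam1 higher (adjusted p = 0.0438). The sums of both lists overlapped between groups (2558 to 9021 against 1744 to 7068, and 1723 to 2956 against 2088 to 3730). No keratinocyte marker was called by DESeq2, edgeR or limma voom of 2 tested (summed 32.96 to 145.2 against 25.83 to 72.21), 1 of 5 pericyte markers was higher in GFP+ cells with DESeq2 (Abcc9, adjusted p = 0.0493; edgeR adjusted p = 0.0975; summed 328.2 to 780.1 against 642.9 to 1285), and 5 of 7 fibroblast and sort markers were higher in GFP+ cells (4 with edgeR; summed 151200 to 293200 against 318900 to 373800). The melanocyte marker Mc1r and the pericyte marker Higd1b were at 0 in every library, and the defining markers Foxd3 (Schwann cells) and Krt1 (keratinocytes) were at 0 in all 4 GFP- and in 3 GFP+ libraries, and in 3 GFP- and all 4 GFP+ libraries, respectively. The part of these other cells in the differences below was not tested. In bulk RNA, fewer cells of a type and less RNA per cell cannot be told apart.

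Of the 10 genes, 4 were higher in GFP+ cells (Gadd45g, Gas1, Gadd45b and Mdm2) and 0 were lower, at a DESeq2 adjusted p under 0.05 across all genes. At an unadjusted p under 0.05, 1 was lower, Cdkn2c, which limma voom also called. Across all 15283 genes tested, 4.66% were called higher, 4.76% lower and 9.42% in either direction. With edgeR, 3 of the 10 were higher, without Mdm2, and none was lower, against 2.83% of all genes higher, 2.28% lower and 5.11% in either direction. The median log2 fold change of the 10 genes was 0.0042, against -0.0082 for all genes tested. Gadd45b and Gadd45g were singled out by the study from these same libraries, so their direction is not independent evidence. GFP- replicate 3, the shallowest library, was the highest of its group for 5 of the 10 genes and the lowest for the other 5. Without it, 5 of the 10 genes were called, with Cdkn2c added.

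**Figure D1:**
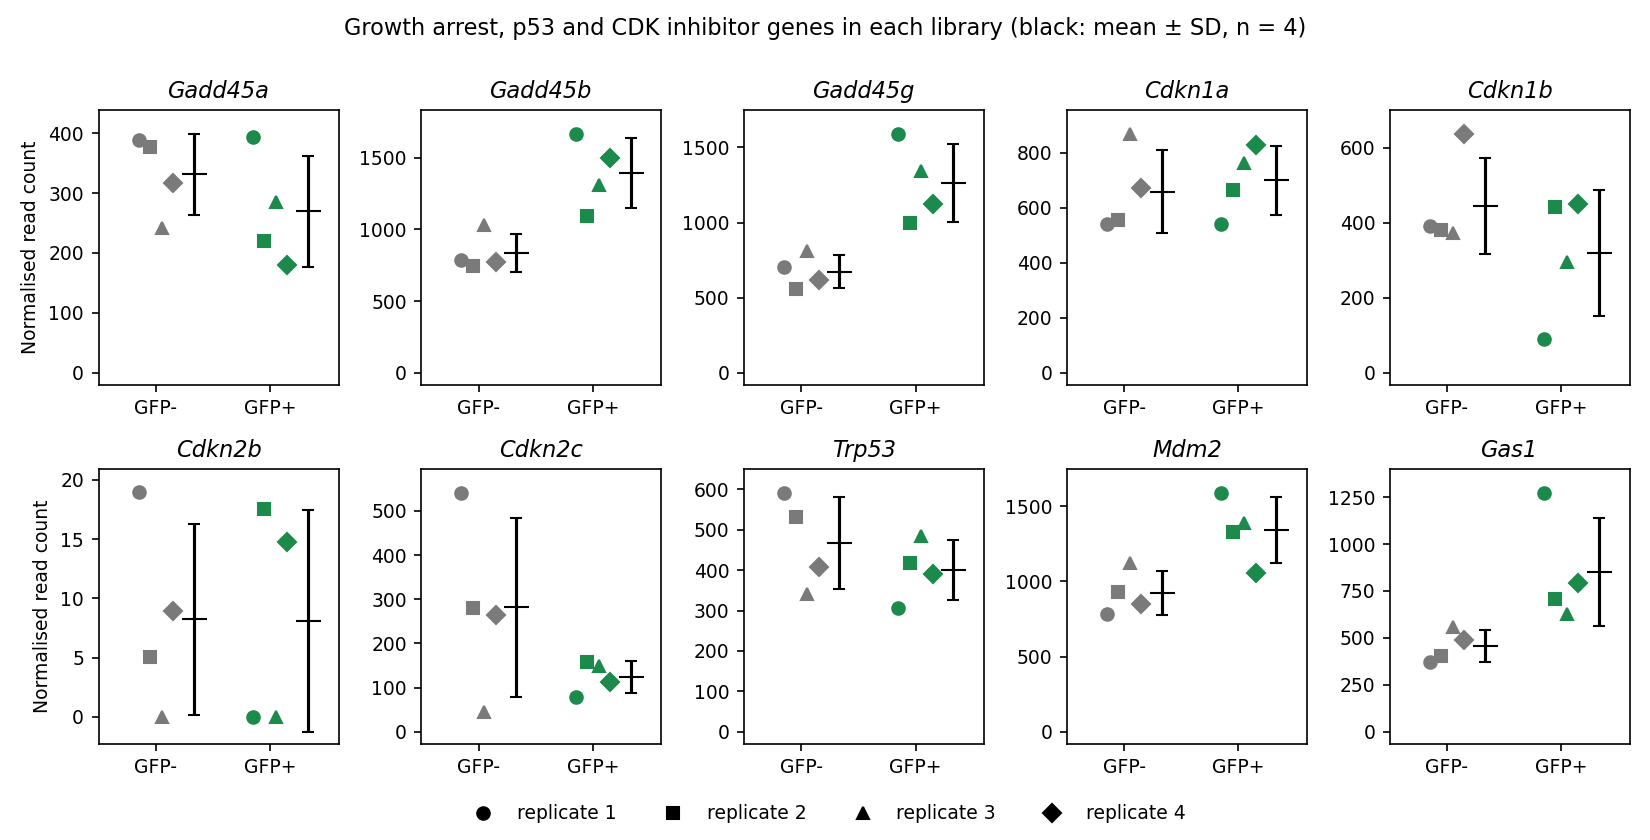
Normalised read counts (y axis) of the 10 genes in the 4 GFP- (grey) and 4 GFP+ (green) libraries, with the marker shape giving the replicate number and black bars the mean ± SD. All 4 GFP+ values lie above all 4 GFP- values for Gadd45b, Gadd45g and Gas1, and the y axes differ between genes.

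Gadd45g, at chr13:51846678-51848468 (GRCm38, plus strand), was the gene of the 10 with the lowest adjusted p. Its normalised counts were 703, 556, 813 and 617 in GFP- replicates 1 to 4, and 1589, 995, 1344 and 1125 in GFP+ replicates 1 to 4. Every GFP+ library lay above every GFP- library. The means were 672 ± 112 and 1263 ± 260 (SD, n = 4 libraries), so that the gene was 1.91-fold higher in GFP+ cells (log2 0.93 ± 0.21, SE; 95% interval 0.51 to 1.35; DESeq2 adjusted p = 0.000455; edgeR adjusted p = 0.0131).

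Gadd45b, at chr10:80930073-80932204 (plus strand), encodes the paralog also known as an early response gene to TGF-β and inflammatory signals. Normalised counts of Gadd45b were 787, 746, 1033 and 772 in GFP- libraries, and 1665, 1095, 1313 and 1500.3 in GFP+ libraries, in replicate order. The groups did not overlap, and the gap was narrow, from 1033 in GFP- replicate 3 to 1095 in GFP+ replicate 2. Gadd45b was 1.70-fold higher in GFP+ cells (log2 0.76 ± 0.20, SE; 95% interval 0.38 to 1.15; DESeq2 adjusted p = 0.00249; edgeR adjusted p = 0.0256). The calls on Gadd45b and Gadd45g held in 16 of 16 alternative analyses, which included leaving out each library in turn. In total 3 of the 10 genes had groups that did not overlap, all with GFP+ higher; of all genes tested, 6.37% were separated in that direction, 5.95% in the other and 12.3% in either.

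Gadd45a, at chr6:67035096-67037457 (minus strand), the GADD45 gene that p53 is best known to induce, had the opposite sign but was not called. In GFP- libraries its normalised counts were 388, 378, 242 and 317, and in GFP+ libraries 393, 219.6, 286 and 180.2. The highest of the 8 values was in GFP+ replicate 1 and the lowest in GFP+ replicate 4, so the groups overlapped fully. The log2 fold change was -0.33 ± 0.30 (SE; 95% interval -0.92 to 0.26; DESeq2 adjusted p = 0.591), an interval that leaves out a rise of the size seen for Gadd45b or Gadd45g. Exons of E230016M11Rik lie opposite to Gadd45a, and how many reads the strand-aware counting misplaced there was not measured.

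Because the 3 paralogs were counted in the same libraries, their shares of all GADD45 reads do not depend on library scaling. Gadd45a made up 18.3 ± 4.77% of GADD45 reads in GFP- cells (20.66%, 22.48%, 11.58% and 18.6% in replicate order) and 9.11 ± 1.87% in GFP+ cells (10.78%, 9.509%, 9.713% and 6.422%; SD, n = 4 each). The groups did not overlap, although GFP- replicate 3, at 11.58% of only 190 reads, lay close to the GFP+ libraries. Gadd45g made up 36.4 ± 2.48% of GADD45 reads in GFP- cells and 43.1 ± 2.30% in GFP+ cells, again without overlap (highest GFP- value 38.95%, lowest GFP+ value 40.1%), and Gadd45b made up 45.3 ± 3.15% and 47.8 ± 3.96%, with overlap. These shares are given as a description, since they rest on the same counts as the tests above.

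**Figure D2:**
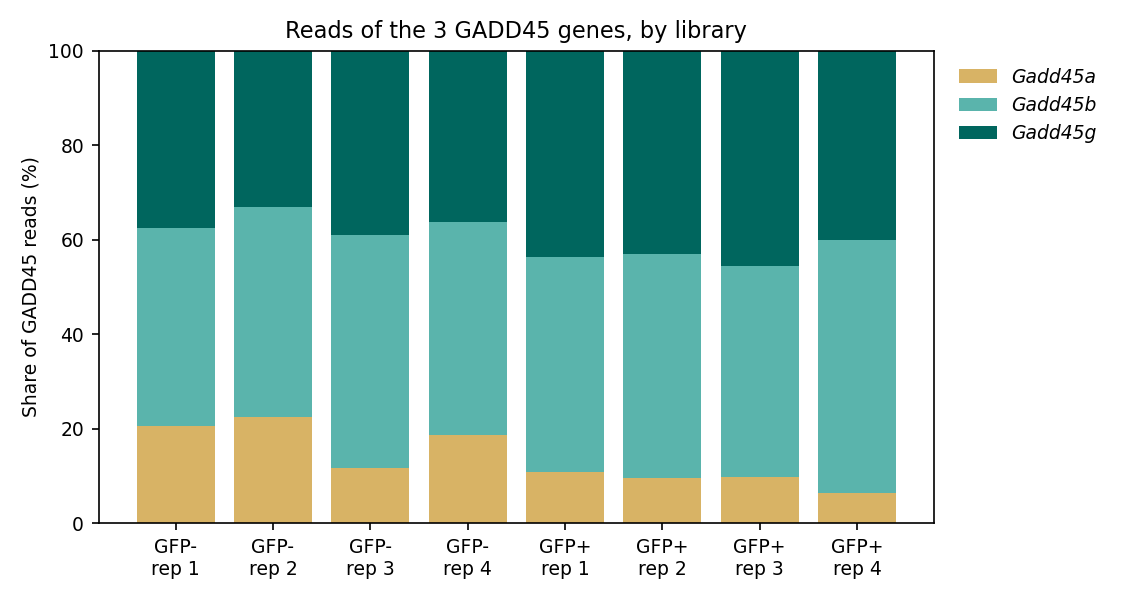
Share of reads assigned to the 3 GADD45 genes (y axis, percent of their sum) in each of the 8 libraries, stacked by gene. The Gadd45a share is between 11.58% and 22.48% in GFP- libraries and between 6.422% and 10.78% in GFP+ libraries.

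The bases just before the RefSeq start of the 3 GADD45 genes (RefSeq, GRCm38.p6) are shown because 2 of these promoters belong to genes that rose together and the third to a paralog that did not. They are written 5′ to 3′ on the strand of the gene, from up to 250 bases before the start, and bases inside the annotated gene are left off. Capitals mark every match, on either strand, to the motifs searched, which were the AP-1 motif TGANTCA, the CRE motif TGACGTCA, the STAT motif TTCNNNGAA, the SP1 motif GGGCGG, the CCAAT box, the TATA box with the letters TATAAA, and the p53 decamer, by name.
Gadd45b, chr10:80929841-80930072, plus strand: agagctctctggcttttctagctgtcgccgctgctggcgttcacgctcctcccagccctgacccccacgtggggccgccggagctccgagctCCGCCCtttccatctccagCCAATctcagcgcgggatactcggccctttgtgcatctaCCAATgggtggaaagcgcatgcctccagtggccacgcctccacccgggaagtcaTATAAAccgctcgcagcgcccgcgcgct
Gadd45g, chr13:51846425-51846674, plus strand: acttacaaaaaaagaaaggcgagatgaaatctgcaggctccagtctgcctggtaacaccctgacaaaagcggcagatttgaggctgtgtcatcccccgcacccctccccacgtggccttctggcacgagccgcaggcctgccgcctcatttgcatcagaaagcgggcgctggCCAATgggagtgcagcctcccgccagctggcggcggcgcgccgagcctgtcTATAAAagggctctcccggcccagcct
Gadd45a, chr6:67037458-67037657, minus strand: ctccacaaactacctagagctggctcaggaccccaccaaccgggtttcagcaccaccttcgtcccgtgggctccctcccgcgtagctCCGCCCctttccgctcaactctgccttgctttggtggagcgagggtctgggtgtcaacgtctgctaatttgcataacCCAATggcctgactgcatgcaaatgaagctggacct
In the full 250 bases, a TATA match lay 46 to 41 bases before the start of Gadd45b and 27 to 22 bases before that of Gadd45g, and no match was found for Gadd45a; 12.4% of 32851 mouse promoters of this length hold it. All 3 hold CCAAT, as do 33.8% of promoters. Gadd45a alone of the 3 holds a p53 decamer, 40 to 31 bases before its RefSeq start, in the stretch not printed, and 7.13% of promoters hold one. No match to AP-1 or STAT was found in the 250 bases of any of the 10 genes, against 6.75% and 7.02% of all promoters. A match or its absence in this window says nothing of binding.

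Cdkn1a, which encodes p21 and is a classical p53 target, lies at chr17:29090976-29100727 (plus strand). Across replicates 1 to 4 its normalised counts were 540.0, 555, 868 and 671 in GFP- libraries, and 542, 666, 764 and 827 in GFP+ libraries. The highest value was that of the shallow GFP- replicate 3 and the 2 groups overlapped throughout. GFP+ and GFP- cells differed by 0.12 ± 0.22 (log2, SE; 95% interval -0.32 to 0.56; DESeq2 adjusted p = 0.841), and in no alternative was it called. Exons of AC167363.2 lie opposite to Cdkn1a, and misplaced reads were not measured.

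Cdkn1b, at chr6:134920401-134925513 (plus strand), encodes p27, an inhibitor often high in resting cells. Its normalised counts were 391, 379.8, 374 and 636 in GFP- libraries, and 90.3, 442, 294 and 451 in GFP+ libraries. GFP- replicate 4 stood above the rest of its group, GFP+ replicate 1 below the rest of its own, and the other 6 libraries overlapped. On the log2 scale the difference was -0.48 ± 0.43 (SE; 95% interval -1.33 to 0.37; DESeq2 adjusted p = 0.584).

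Cdkn2c, at chr4:109660876-109667189 (minus strand), had the largest difference of the 10 genes in size, with the lower mean in GFP+ cells. Normalised counts of Cdkn2c were 540.0, 279, 43.9 and 264 in GFP- libraries, and 77.8, 158, 148 and 112 in GFP+ libraries. In 3 GFP- libraries the value was above every GFP+ value, and GFP- replicate 3 had the lowest value of all, from 4 reads. The log2 fold change was -1.22 ± 0.51 (SE; 95% interval -2.22 to -0.21) and did not pass the test with DESeq2 (adjusted p = 0.123) or edgeR (adjusted p = 0.215), but did with limma voom (adjusted p = 0.049). Without GFP- replicate 3 the difference was -1.53 on the log2 scale and passed the test (DESeq2 adjusted p = 0.00112), and without GFP- replicate 1, the highest library, it was -0.74 and did not (DESeq2 adjusted p = 0.444).

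Cdkn2b, at chr4:89306299-89311039 (minus strand), encodes p15, a CDK inhibitor known to be induced by TGF-β. Its normalised counts were 19.0, 5.02, 0 and 8.93 in GFP- libraries, and 0, 17.6, 0 and 14.8 in GFP+ libraries. Raw counts reached only 14, 7, 0 and 17 in the former, and 0, 42, 0 and 44 in the latter, and the limit that a count of 0 allows (3 reads) was 32.96 normalised counts in GFP- replicate 3, 4.17 in GFP+ replicate 1 and 2.30 in GFP+ replicate 3. Counts were few and uneven between libraries of the same group, and no difference was called. The log2 fold change was -0.11 ± 1.61 (SE), with a 95% interval of -3.27 to 3.05 (DESeq2 adjusted p = 0.983). The sign for Cdkn2b turned in 2 of the 10 alternatives that gave a value. Its neighbour Cdkn2a had 0 reads in all 4 GFP- libraries and 0, 5, 1 and 9 reads in GFP+ replicates 1 to 4, too few for an adjusted p.

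Trp53, at chr11:69580359-69591873 (plus strand), had normalised counts of 590.2, 532, 341 and 408 in GFP- libraries, and 307, 417, 486 and 391 in GFP+ libraries. The lowest value was in GFP+ replicate 1 and the highest in GFP- replicate 1, and the groups overlapped. The log2 fold change was -0.25 ± 0.24 (SE; 95% interval -0.73 to 0.23; DESeq2 adjusted p = 0.624).

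Mdm2, at chr10:117688875-117710758 (minus strand), encodes the ubiquitin ligase that restrains p53 and is itself a p53 target. Its normalised counts were 786, 928, 1121 and 847 in GFP- libraries, and 1586, 1329, 1387 and 1058 in GFP+ libraries. GFP- replicate 3 exceeded GFP+ replicate 4, and the other libraries did not overlap. Mdm2 was 1.47-fold higher in GFP+ cells with DESeq2 (log2 0.56 ± 0.19, SE; 95% interval 0.18 to 0.94; adjusted p = 0.0402) and was not called with edgeR (adjusted p = 0.0924). The call held in 6 of 16 alternatives and in 2 of the 8 in which a library was left out (without GFP- replicate 3 or without GFP+ replicate 4; the DESeq2 adjusted p ranged from 0.0105 to 0.15 over the 8). The ratio of Mdm2 to Trp53 reads within a library was 1.331, 1.743, 3.29 and 2.075 in GFP- cells, and 5.167, 3.187, 2.858 and 2.704 in GFP+ cells, with GFP- replicate 3 inside the GFP+ range.

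The promoter bases of Cdkn1a and Mdm2 are shown because both genes are known targets of p53, with the same marking as above.
Cdkn1a, upstream start, chr17:29090729-29090975, plus strand: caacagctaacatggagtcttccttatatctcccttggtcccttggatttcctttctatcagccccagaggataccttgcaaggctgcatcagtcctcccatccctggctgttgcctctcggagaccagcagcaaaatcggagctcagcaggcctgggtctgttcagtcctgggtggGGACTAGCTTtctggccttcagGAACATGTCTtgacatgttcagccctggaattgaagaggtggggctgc
Mdm2, chr10:117710759-117711008, minus strand: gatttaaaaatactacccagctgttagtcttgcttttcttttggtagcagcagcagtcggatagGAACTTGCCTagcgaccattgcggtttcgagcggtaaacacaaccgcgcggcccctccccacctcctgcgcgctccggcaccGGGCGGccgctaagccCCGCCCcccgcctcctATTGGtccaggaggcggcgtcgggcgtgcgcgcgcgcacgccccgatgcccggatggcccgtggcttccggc
Cdkn1a held p53 decamers 73 to 64 and 51 to 42 bases before this start, and Mdm2 held one 186 to 177 bases before its start. With Gadd45a and Trp53, 4 of the 10 genes had a p53 decamer in their 250 bases, against 7.13% of all promoters. Cdkn1a and Cdkn2c each had 2 starts, and a gene was counted when any of its windows held a match. The downstream start of Cdkn1a matched SP1 only. A single decamer is only part of a full p53 site. A match in these bases was not tested against the expression values.

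Gas1, at chr13:60174405-60177365 (minus strand), had normalised counts of 373, 406, 560.4 and 491 in GFP- libraries, and 1271, 707, 627 and 794 in GFP+ libraries. Every GFP+ value was above every GFP- value, and GFP+ replicate 1 was well above the other GFP+ libraries. Gas1 was 1.88-fold higher in GFP+ cells (log2 0.91 ± 0.27, SE; 95% interval 0.38 to 1.44; DESeq2 adjusted p = 0.012; edgeR adjusted p = 0.0419). The call was lost without GFP- replicate 1 (DESeq2 adjusted p = 0.0539) and without GFP- replicate 2 (0.0666). An antisense gene, Gm48488, overlaps its exon.

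**Figure D3:**
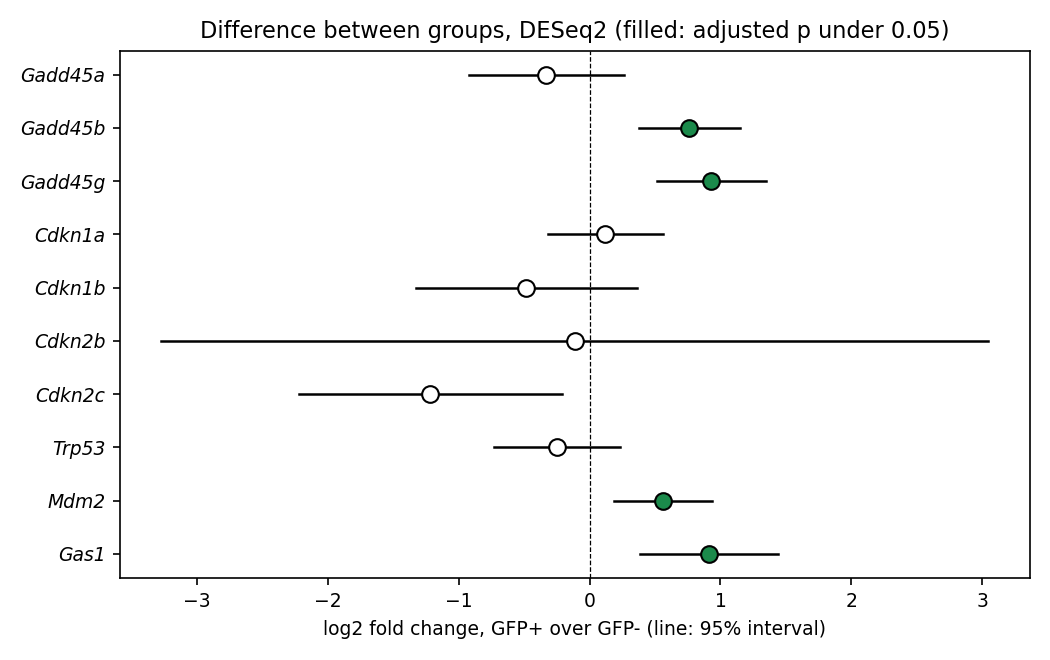
Log2 fold change of GFP+ over GFP- cells for the 10 genes from DESeq2 (x axis), with lines for the 95% interval and filled points for an adjusted p under 0.05. The 4 filled points are Gadd45b, Gadd45g, Mdm2 and Gas1, and the widest interval is that of Cdkn2b, from -3.27 to 3.05.

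**Figure D4:**
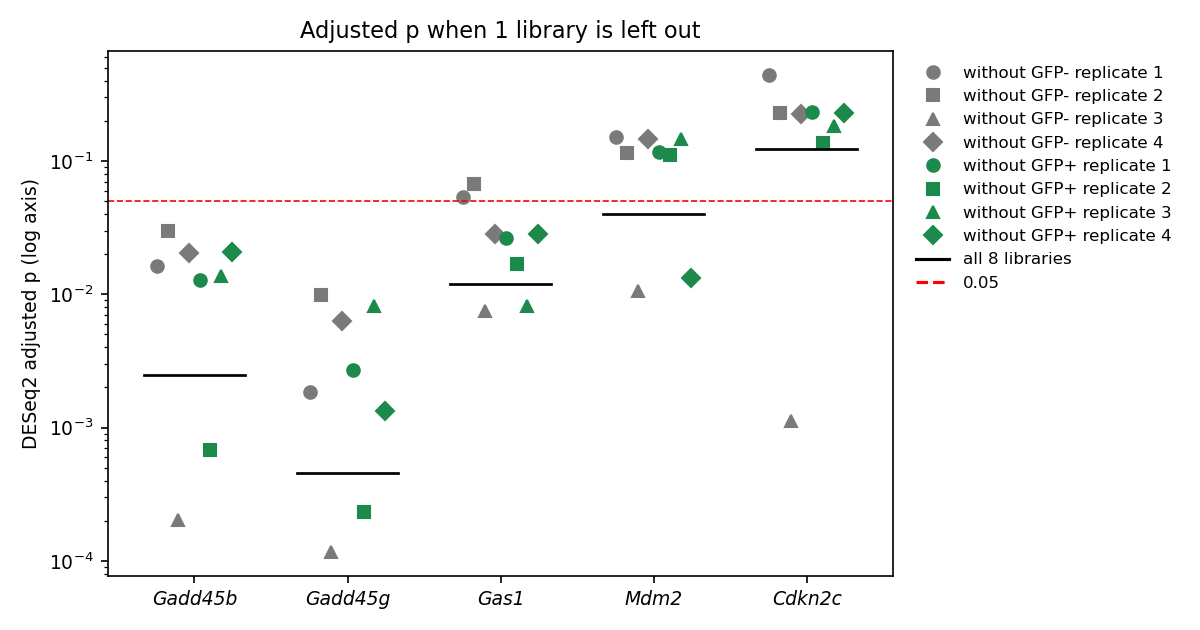
DESeq2 adjusted p (y axis, log scale) for 5 of the genes when each of the 8 libraries is left out, with black lines for all libraries and a dashed line at 0.05. Gadd45b and Gadd45g stay under the dashed line in all 8 cases, Gas1 in 6, Mdm2 in 2 and Cdkn2c in 1.

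Levels were compared between genes as normalised counts per kb of exon. In GFP- cells the order was Gadd45g (573 ± 95.1), Gadd45b (525 ± 83.9), Gadd45a (188 ± 38.2), Cdkn1a (185 ± 42.6), Mdm2 (181 ± 28.7), Gas1 (155 ± 28.6), Trp53 (116 ± 28.1), Cdkn2c (105 ± 75.5), Cdkn1b (97.8 ± 28.0) and Cdkn2b (5.92 ± 5.79; SD, n = 4 libraries for each gene). In GFP+ cells it was Gadd45g (1077 ± 222), Gadd45b (877 ± 154), Gas1 (287 ± 97.5), Mdm2 (264 ± 42.9), Cdkn1a (197 ± 35.01), Gadd45a (153 ± 52.8), Trp53 (98.9 ± 18.3), Cdkn1b (70.2 ± 37.1), Cdkn2c (46.2 ± 13.6) and Cdkn2b (5.82 ± 6.77). Neighbours in both orders had overlapping ranges over libraries, except for the step below Gadd45b and the step above Cdkn2b. Gadd45g and Gadd45b were also above 97.6% and 97% of genes per kb.

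The related genes were grouped by role, in 9 lists with 135 genes, of which 127 were tested, 9 were called higher and 11 lower in GFP+ cells (5 and 5 with edgeR). Across all genes tested, 4.66% were called higher and 4.76% lower (2.83% and 2.28% with edgeR). These shares are the background for each list count below, and no list was tested as a set. Among regulators of p53, 1 of 15 tested genes was higher and 2 were lower, with a median log2 fold change of -0.24. The deacetylase gene Sirt1 rose by 0.84 ± 0.25 (log2, SE; DESeq2 adjusted p = 0.0108; edgeR adjusted p = 0.0492), and its call held in 13 of 16 alternatives, but not at a threshold of 0.01, nor without GFP- replicate 2, nor without GFP+ replicate 4 (highest adjusted p 0.0707). Hipk2, which encodes a kinase of p53, fell, from 1492, 1066, 934 and 1344 normalised counts in GFP- libraries to 535, 533, 565 and 655 in GFP+ libraries, a log2 fold change of -1.09 ± 0.20 (DESeq2 adjusted p = 2.32e-06; edgeR adjusted p = 0.00452). The checkpoint kinase gene Chek2 differed by -1.92 ± 0.65 (log2) with DESeq2 (adjusted p = 0.036) and was not called with edgeR (adjusted p = 0.163). The Chek2 call held in 5 of 16 alternatives and was lost in 5 of the 8 that left out a library (GFP- replicate 1 and each GFP+ library). Limma voom and the replicate block also ended it. Mdm4, the relative of Mdm2, was not called (0.15 ± 0.15; DESeq2 adjusted p = 0.634).

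Of 29 tested p53 target genes, 2 were called higher and none lower with DESeq2, and the median log2 fold change was 0.07. At an unadjusted DESeq2 p under 0.05, 3 were higher (Dram1, Eda2r and Btg2) and 1 was lower (Aen). With edgeR 1 was called higher and with limma voom 2, and none was lower with either. Dram1, which encodes a lysosomal regulator of autophagy, had normalised counts of 569.8, 568, 604 and 433 in GFP- libraries, and 1009.5, 910.4, 1200.0 and 1350.4 in GFP+ libraries. It was 2.08-fold higher (log2 1.06 ± 0.20; DESeq2 adjusted p = 1.51e-05; edgeR adjusted p = 0.00571). Eda2r, a receptor gene, was the other gene called by DESeq2 (log2 1.25 ± 0.42; DESeq2 adjusted p = 0.0381; edgeR adjusted p = 0.153), and its call held in only 4 of 16 alternatives and was lost in 6 of the 8 that left out a library (all but GFP- replicate 3 and GFP+ replicate 2). Limma voom and the replicate block also ended the Eda2r call. Ccng1 and Zmat3, also p53 targets, had log2 fold changes of 0.23 ± 0.22 and 0.09 ± 0.29 and were not called.

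Of 4 other genes with Cdkn symbols that were tested, none was called by DESeq2, edgeR or limma voom, and 0 had an unadjusted DESeq2 p under 0.05. The list holds the CDK inhibitor genes Cdkn1c and Cdkn2d, the phosphatase gene Cdkn3 and Cdkn2aip, whose protein binds ARF. Cdkn1c (p57) had a log2 fold change of -0.10 ± 0.34 and Cdkn2d (p19) of 0.07 ± 0.78, while Cdkn3 and Cdkn2aip were at -1.45 ± 0.76 and -0.43 ± 0.36. Of 31 cell cycle genes, which are cyclin, CDK, RB and E2F family genes together with Mcm2, Mki67, Pcna, Skp2 and Cks1b, 4 were lower and none higher with DESeq2 (10 and 0 at an unadjusted p under 0.05; 3 and 0 with edgeR; 5 and 0 with limma voom), with a median of -0.19. Their summed normalised count was 18040, 16300, 11640 and 14420 in GFP- libraries, and 9705, 11200, 10630 and 11100 in GFP+ libraries. Mcm2, a replication licensing gene, had a log2 fold change of -1.19 ± 0.33 (DESeq2 adjusted p = 0.00635; edgeR adjusted p = 0.0368) and was called in 16 of 16 alternatives. Mcm2 and Cdk2 were singled out by the study from these same libraries, so their direction is not independent evidence. Ccnd2 (cyclin D2), at -0.84 ± 0.24, was called by both tools (DESeq2 adjusted p = 0.00913; edgeR adjusted p = 0.041) and in 14 of 16 alternatives, but not without GFP- replicate 4 and not without GFP+ replicate 3. Ccnb2 (cyclin B2), at -1.12 ± 0.31, was called by DESeq2 (adjusted p = 0.00637) and not by edgeR (adjusted p = 0.0692), and in 14 of 16 alternatives, but not without GFP- replicate 2. Cdk2, at -2.61 ± 0.77, was called by both (DESeq2 adjusted p = 0.0118; edgeR adjusted p = 0.0207) and in 12 of 16 alternatives, with the call lost at a threshold of 0.01 and when GFP- replicate 1, when GFP- replicate 4 or when GFP+ replicate 3 was left out (highest adjusted p 0.0821). The exons of Cdk2 overlap those of Pmel, a melanocyte marker on the opposite strand with a mean of 9341 normalised counts in GFP- and 875 in GFP+ cells, so its reads are uncertain. Mki67, a marker of cycling cells, was not called (-0.50 ± 0.35; DESeq2 adjusted p = 0.44). The melanocyte markers were also lower in GFP+ cells, as given above. Within GFP- cells, the highest melanocyte sum was in replicate 4 (74880) and the highest cell cycle sum in replicate 1 (18040). The part of melanocyte RNA in these differences was not tested.

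Of the 8 tested kinases and partners of GADD45 proteins, none was called by DESeq2 or edgeR (1 had an unadjusted DESeq2 p under 0.05), and limma voom called 1, Mapk9 (JNK2), higher (adjusted p = 0.0495). DESeq2 called 1 gene without GFP- replicate 3 and 1 without GFP+ replicate 2. Map3k4, the kinase that GADD45 proteins activate, had a log2 fold change of -0.11 ± 0.31 and Mapk14 (p38α) of -0.50 ± 0.32. Gadd45gip1, whose protein binds GADD45, was close to the threshold at -1.30 ± 0.46 (DESeq2 adjusted p = 0.0521). Of 8 other growth arrest and DNA damage inducible genes, 2 were higher and 3 lower with DESeq2, and none was called with edgeR. Ppp1r15a (GADD34) and the transcription factor gene Atf3 were 0.56 ± 0.18 and 0.42 ± 0.13 higher (log2; DESeq2 adjusted p = 0.0256 and 0.0178; edgeR adjusted p = 0.0642 and 0.0866), while Ddit3 (CHOP), Trib3 and Chac1, genes of the unfolded protein and amino acid responses, had log2 fold changes of -1.56 ± 0.44, -2.79 ± 0.74 and -3.29 ± 0.89 (DESeq2 adjusted p = 0.00757, 0.0039 and 0.00498; edgeR adjusted p = 0.0556, 0.0992 and 0.103). Of 16 alternatives, the call held in 9 for Ppp1r15a, 9 for Atf3, 14 for Ddit3, 14 for Trib3 and 13 for Chac1; leaving out GFP- replicate 4 ended it for Ddit3, Trib3, Chac1 and Atf3, and leaving out GFP- replicate 1 for Chac1, Ppp1r15a and Atf3. GFP- replicate 2, GFP+ replicate 1 and GFP+ replicate 3 also ended it for Ppp1r15a and Atf3, and GFP+ replicate 2 for Ppp1r15a. Ddit3 shares its strand with another annotated gene, so its reads are uncertain.

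Of 6 tested growth arrest specific genes other than Gas1, 1 was higher and 2 were lower. Gas6, which encodes a ligand of the AXL receptor, rose, from 2130, 2153, 2505 and 1430.3 normalised counts in GFP- libraries to 10850, 6018, 9177 and 3209 in GFP+ libraries. It was 3.57-fold higher (log2 1.84 ± 0.33; DESeq2 adjusted p = 3.12e-06; edgeR adjusted p = 0.00468). Gas2 and Gas2l3, both cytoskeletal genes, had log2 fold changes of -2.28 ± 0.74 and -1.46 ± 0.33 (DESeq2 adjusted p = 0.0263 and 0.000344; edgeR adjusted p = 0.147 and 0.0172). The call on Gas2l3 held in 16 of 16 alternatives and that on Gas2 in 8, being lost without each of GFP- replicates 1 and 4 and GFP+ replicates 1 and 3. Limma voom, the replicate block and a threshold of 0.01 also ended the Gas2 call. The study singled out Gas6 from these same libraries, so its direction here is not independent evidence. Separately, the study found more Gas6 in ADAM12+ than in ADAM12- cells by qRT-PCR and as secreted protein.

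Of 17 antiproliferative and quiescence genes, 1 was higher, Klf4, at log2 0.57 ± 0.19 (DESeq2 adjusted p = 0.0387; edgeR adjusted p = 0.0798), and none lower, with a median of 0.35. At an unadjusted DESeq2 p under 0.05, 5 were higher (Btg1, Btg2, Foxo1, Txnip and Klf4) and 0 lower. With edgeR 0 were called higher and with limma voom 2, and none was lower with either. The Klf4 call held in 7 of 16 alternatives and was lost without each of GFP- replicates 1 and 2 and GFP+ replicates 1, 2 and 3, and also with the replicate block. In the hedgehog pathway that Gas1 serves, 2 of 10 tested genes were higher with DESeq2, none was lower and the median was 0.33. With edgeR and with limma voom, 2 were also higher and none was lower. An unadjusted DESeq2 p under 0.05 was reached by 3 higher genes (Cdon, Gli2 and Hhip) and by 1 lower gene (Ptch1). The co-receptor gene Cdon had a log2 fold change of 0.92 ± 0.24 (DESeq2 adjusted p = 0.0028; edgeR adjusted p = 0.023) and the transcription factor gene Gli2 of 1.07 ± 0.27 (DESeq2 adjusted p = 0.00169; edgeR adjusted p = 0.0283). Gli2 had normalised counts of 160.1, 331, 297 and 238 in GFP- libraries, and 632, 512, 484 and 498 in GFP+ libraries, with no overlap. Ptch1, a receptor and target gene of the pathway, had the opposite sign and was not called (-0.71 ± 0.27; DESeq2 adjusted p = 0.0716). The target genes Hhip and Gli1 had positive log2 fold changes and were not called either (1.96 ± 0.81 and 0.76 ± 0.51; DESeq2 adjusted p = 0.115 and 0.426). Hhip had normalised counts of 0 to 40.8 in GFP- and 63.8 to 102.5 in GFP+ libraries, without overlap.

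The genes most like each called gene over the 8 libraries were sought by the smallest root mean square difference of centred log2 values, among 8811 candidates whose normalised count averaged 100 or more. Nearest to Gadd45b were Mycbp2 (0.0772), B3galt1 (0.0932) and Nek6 (0.103), and nearest to Gadd45g were C4b (0.0975), Nek6 (0.124) and Zfp36 (0.126). Nek6 was thus shared by both GADD45 genes. Nearest to Mdm2 were Fndc3a (0.0857), Antxr1 (0.094) and Zfyve9 (0.103), and nearest to Gas1 were Setdb2 (0.097), Tulp4 (0.134) and Ttyh3 (0.143). These genes were picked for their likeness, so no test is given.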

How the data were processed

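The 8 stranded total RNA libraries (SMARTer Pico kit, NextSeq) were compared, 4 GFP+ with 4 GFP-, grouped by their labels. Per the labels and methods, the authors trimmed reads with cutadapt 3.4, mapped them to GRCm38 with STAR 2.7.3a and counted them per Ensembl gene by strand with featureCounts 2.0.1. The authors deposited raw counts per gene and library, and a normalised score, which is the count divided by a DESeq2 size factor and rounded (largest difference from the values computed here 0.5). Columns of the authors' own comparison (fold changes and p-values) were not used. Per-sample columns left out: 0.

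Counts were fitted with DESeq2 1.42.0 in R 4.3.3 (2-sided Wald tests, group as the only term, all 8 libraries), with Benjamini-Hochberg adjustment over all genes; 15283 of 29043 genes with a count had an adjusted p, and genes under 0.05 were called. edgeR 4.0.16 (quasi-likelihood) and limma 3.58.1 (voom) were alternatives, with TMM scaling, a minimum mean count of 10, no independent or Cook's filter, a replicate block, a threshold of 0.01 and leaving out each library. On simulated counts of 25460 genes for the comparison of GFP+ with GFP- cells, with 200 changed, DESeq2 made 137 true and 62 false calls and edgeR 96 and 3, which is why edgeR values stand beside the calls. DESeq2 recovered 91 of the genes changed 4-fold and 46 of those changed 2-fold, and edgeR 78 and 18.

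Total counts were 883144 to 31666734 per library. No pair of replicates agreed within sampling noise (chi-square per degree of freedom 10.2 to 81.3). Exon lengths and coordinates came from GENCODE M21 (99.82% of identifiers found), and promoters from RefSeq. The members and lists were chosen with earlier results of these data known. Named genes were the 10 members, genes of each list called by DESeq2 (at most 6, by size of change) with a few others of the list as examples, and the 3 genes most like each called member, after a pseudocount of 1. No batch or date is given in the labels.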

Additional observations from a re-analysis of the deposited data

Results flagged for a closer look

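Each of the 10 genes was checked in each group for a library far from the rest of its group (Dixon's test at the 95% level for 4 libraries), which made 20 checks, and 2 stood out. Chance marks about 1 in 20 such groups. For Cdkn1b, GFP- replicate 4 had 636.1 normalised counts and the other GFP- libraries 374 to 391. For Gadd45b, GFP- replicate 3, the shallowest library, had 1033 and the other GFP- libraries 746 to 787. The call on Gadd45b did not rest on that library: without it the DESeq2 adjusted p was 0.000203. No explanation was tested.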

How the results depend on the processing

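The tests were recomputed under 16 alternatives (10 gave a value for Cdkn2b). Non-overlap of groups was recomputed with TMM scaling and without each library, and the GADD45 shares without each library only. The calls on Gadd45b and Gadd45g held in all 16, and that on Gas1 in 13. The number of the 10 genes called was 4, and 2 at an adjusted p under 0.01; leaving out 1 library gave 2 to 5, with 2 without GFP- replicate 1 or GFP- replicate 2 and 5 without GFP- replicate 3. The number of the 127 related genes called was 20, 10 with edgeR and 12 at an adjusted p under 0.01, and 12 to 25 when 1 library was left out (12 in each case without GFP- replicate 1, without GFP- replicate 4 and without GFP+ replicate 3). The number of the 10 genes with groups that did not overlap was 3, and 3 to 5 when 1 library was left out (5 without GFP- replicate 3). The difference in the Gadd45a share of GADD45 reads was -9.23 percentage points, and -11.5 to -7.84 when 1 library was left out. The sign of Cdkn2b turned without GFP+ replicate 1 (log2 fold change 0.27) and without GFP+ replicate 3 (0.28), and over the libraries left out its value ran from -0.40 to 0.28 where a value could be had. The cause of these changes was not tested.

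Over all genes, 1439 were called with DESeq2, 732 with edgeR, 865 at an adjusted p under 0.01, and 969 to 1837 when 1 library was left out. TMM scaling moved the median of all genes by 0.0091 (log2). The sources do not say whether a shared replicate number marks a shared mouse, and the numbers were not taken to pair the libraries: deviations from the group means correlated at 0.0503, -0.158, -0.122 and 0.262 for the 4 numbers over 8812 genes, and in each group 1 of 4 libraries matched its own number best. With a replicate block, 3 of the 10 genes, 20 of the related genes and 1492 genes in all were called, and Mdm2 had an adjusted p of 0.0542 with DESeq2. Low counts limit Cdkn2b and Cdkn2a, and depth limits every value in GFP- replicate 3. Counting limits cover counting error only.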
